A study of Mus musculus with 8 samples.

Results

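The synaptic vesicle release machinery was followed in developing mouse sympathetic ganglia as 77 genes, taken from the deposited expression tables by symbol: synaptotagmins and their relatives, syntaxins and their binding proteins, SNAP and VAMP SNAREs, complexins, synapsins, synaptophysin, SV2 proteins, Rab3 GTPases and effectors, RIM and Munc13 proteins, bassoon, piccolo, NSF and its SNAP cofactors, and Doc2 proteins. The table for E11.5 held 72 of them among 13506 genes and the table for E14.5 held 74 among 13413, with 69 in both. *Syt2*, *Syt3*, *Syt6*, *Stxbp3b* and *Stxbp5l* had no row at E11.5, and *Synpr*, *Sytl5* and *Stxbp6* had none at E14.5. The symbol rule also takes in family members of other membranes, so each gene was placed in 1 of 3 classes from its known use: chiefly neuronal (38 members of the earlier table and 41 of the later), in use in most cells (23 and 24), or other (11 and 9).

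The study asked what the LIM-homeodomain transcription factor ISL1 does in sympathetic neurons. At E11.5, ganglia of *Isl1* CKO embryos (Wnt1-Cre;Isl1 f/f), in which Wnt1-Cre deletes *Isl1* in the neural crest lineage and other cells keep it, were set against controls (Wnt1-Cre;Isl1 +/+). Both carried the Cre and a Rosa26-tdTomato reporter that guided the dissection. At E14.5, ganglia of *Isl1* hypomorphic embryos (Isl1 f-neo/f-neo), which carry the low-expressing allele in all cells and no Cre, were set against wildtype. There were 2 libraries per genotype, each from ganglia pooled over about 10 embryos, and the deposited tables combine them into 1 FPKM value (fragments per kilobase of transcript, scaled to the number of mapped fragments) per gene and genotype. No read numbers and no values of single libraries are given, so depth and the spread between libraries are unknown, every value below is the authors' pooled value, and none of the differences computed from them here has a replicate check or a test. The authors' own p-value columns were not used. Differences are log2 ratios of mutant over control FPKM, each with 0.1 added, which understates the difference of low genes, and a gene is called lower or higher at 1.5-fold or more.

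Neurons release transmitter when a vesicle SNARE (VAMP2) zips up with the plasma membrane SNAREs, a syntaxin and SNAP-25. Munc13 and RIM proteins prime the vesicle at the active zone under the scaffolds bassoon and piccolo, complexins clamp and promote fusion, and synaptotagmins sense the calcium that triggers it. NSF with its SNAP cofactors then takes the SNARE complex apart. Sympathetic neurons use this machinery for small vesicles and, with partly different synaptotagmins and granule proteins, for the dense core vesicles that carry noradrenaline and peptides.

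*Isl1* itself was 133 FPKM in control against 40.0 in CKO ganglia (-1.73), and 162 in wildtype and 83.1 in hypomorph ganglia (-0.96). Of the 10 sympathetic genes 4 were lower and 0 higher at E11.5, with a summed FPKM of 1826 and 1517. *Dbh* was 543 FPKM in control against 594 in CKO ganglia and *Th* 184 and 145, whereas the transcription factor genes *Gata2* (42.8 and 3.22) and *Gata3* (79.1 and 32.4) were among those lower. Other cells moved with genotype at E11.5. All 9 neural crest and glial markers were higher in CKO ganglia (summed FPKM 233 and 512), as were 9 of 10 erythroid genes, 6 of 7 macrophage genes (40.8 and 92.9), 5 of 8 mesenchymal genes (579 and 1008), all 5 epithelial genes (5.34 and 60.6) and all 3 listed trophoblast genes (4.69 and 63.2), while 1 of 6 endothelial genes was called (54.2 and 69.8). The erythroid genes took 2.29% of all FPKM in control and 11.2% in CKO ganglia, although *Hbb-y*, at 7552 FPKM in control, is listed at 0 in CKO ganglia. Of 14 pan-neuronal genes that are no member, 5 were lower and 0 higher at E11.5 (median -0.46). At E14.5 the medians of these lists were -0.02 for sympathetic genes (1 lower and 1 higher of 10), 0.11 for glia, 0.44 for erythroid, 0.28 for mesenchyme, 0.48 for endothelium, 0.25 for macrophages, and -0.24 for pan-neuronal genes, with the latter at 0 called of 14. In ganglia, fewer neurons and less RNA per neuron cannot be told apart, and the part of these other cells in the results below was not tested.

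In E11.5 control ganglia the members ran from 0.320 to 234 FPKM. The median of those in both tables was at percentile 58.9 of its table, and *Bsn* and *Unc13a* stood at 32.4 and 32.8. The 3 members with the highest level were the same at both stages. *Sytl4* (granuphilin, which docks secretory granules) was 234 FPKM in E11.5 control and 203 in E14.5 wildtype ganglia. *Snap25*, the SNARE of regulated exocytosis, was 104 and 177, and *Syt11*, a synaptotagmin that does not bind calcium, was 93.6 and 154. At E14.5 *Syp*, *Vamp2*, *Cplx1*, *Snap91* and *Snap47* were also above 100 FPKM in wildtype ganglia. *Sytl4* stood at the 97.9 and 98.0 percentile of its tables and *Snap25* at the 94.4 and 97.5 percentile.

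The later ganglia listed more of the neuronal machinery. Both tables were normalized on their own, and allele, dissection and stage differ between them, so the levels stand side by side only. Of the 37 neuronal members in both tables, 35 had a higher FPKM in E14.5 wildtype than in E11.5 control ganglia, 26 of them at 2-fold or more. Of the 12728 genes that both tables share, 64.1% were higher and 14.1% at 2-fold or more, and of the 14 pan-neuronal genes that are no member 13 were higher and 7 at 2-fold or more. Of the 23 members used in most cells, 18 were higher, 1 of them at 2-fold or more. The median rank of the neuronal members within its own table went from percentile 60.7 to 74.3, and that of the broadly used members from 60.6 to 64.5. *Sv2c*, a vesicle glycoprotein, was listed at 16.5 and 83.4 FPKM, *Stx1a* at 14.1 and 46.3, *Syp* (synaptophysin) at 60.2 and 129, and *Unc13a* (Munc13-1, which primes vesicles) at 5.93 and 21.1. *Snap23*, the SNAP-25 relative of most cells, went the other way in this listing, from 16.0 to 8.16, and so did *Vamp3* of recycling endosomes, from 58.8 to 35.5.

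**Figure D1:**
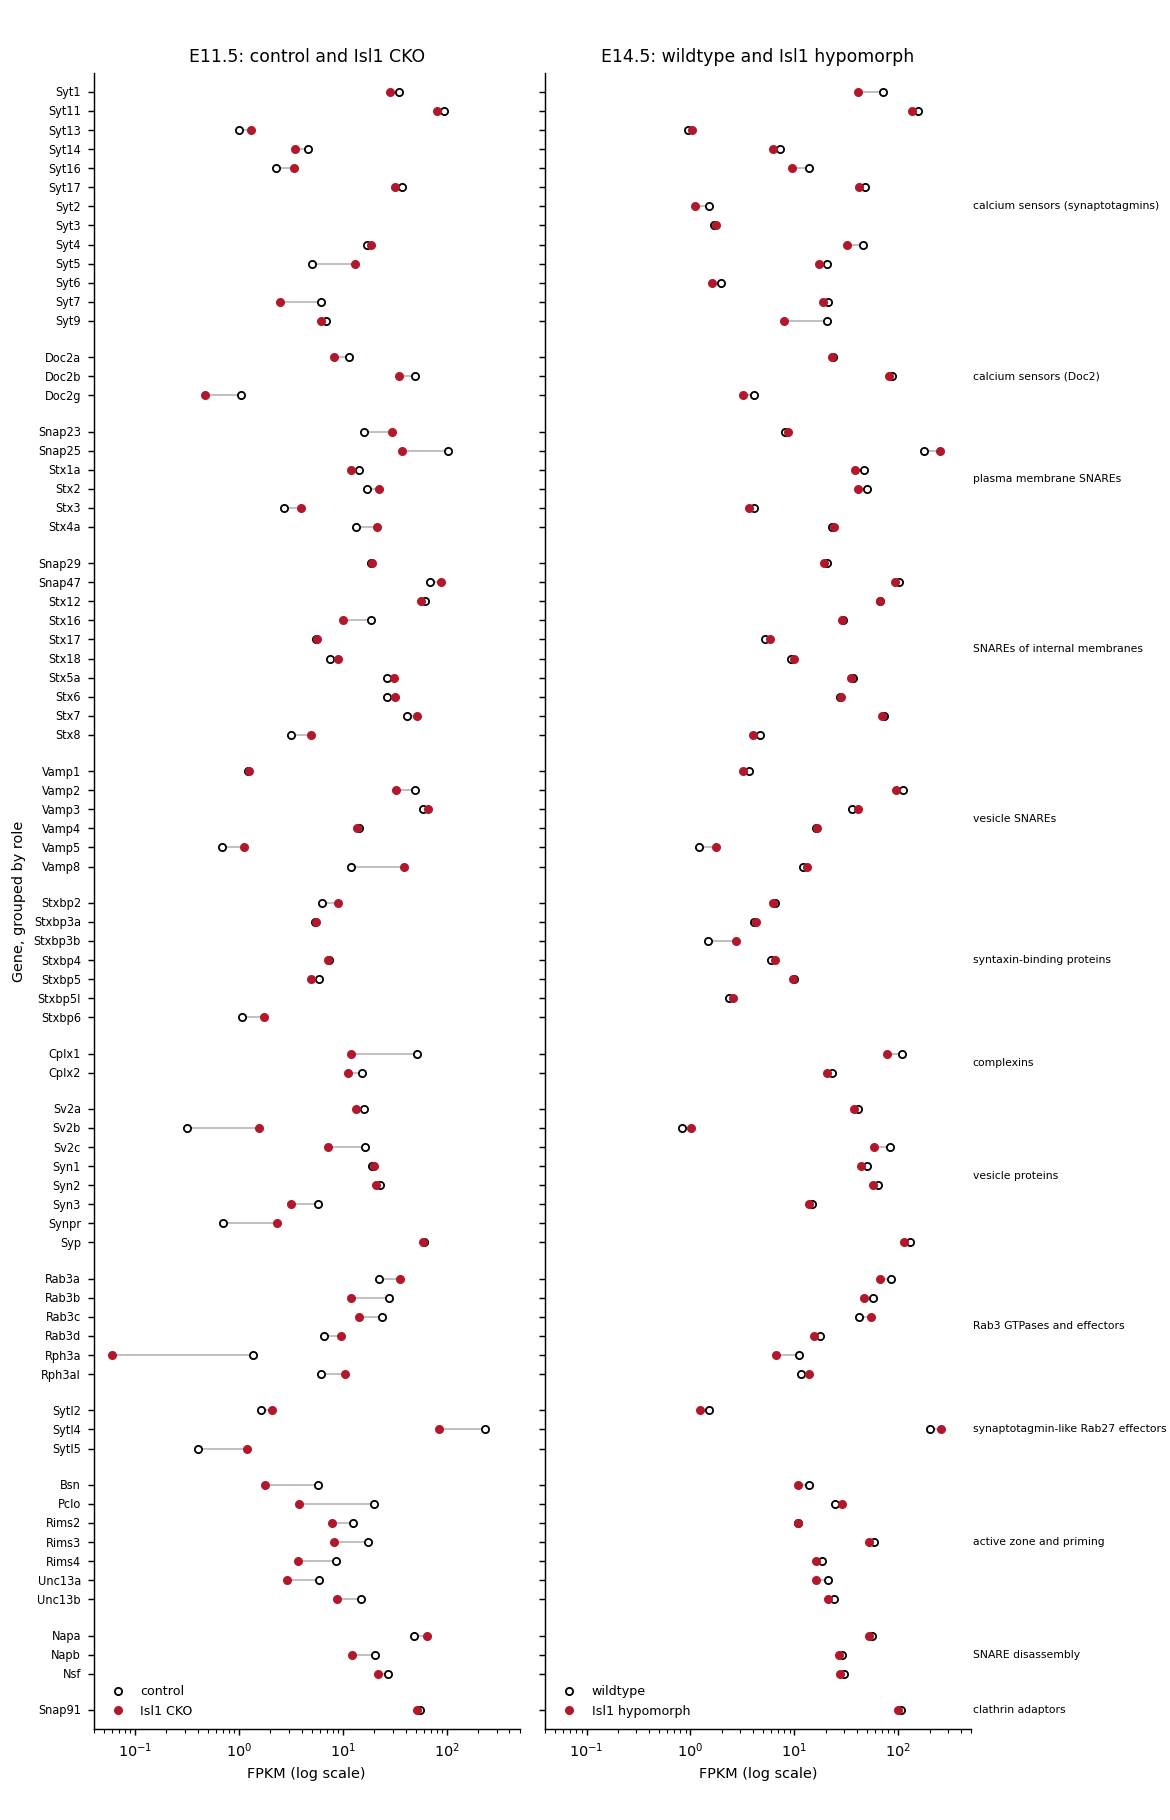
FPKM of most members (log axis) by genotype at each stage; each point is the authors' pooled value of 2 libraries, so there are no error bars. At E11.5 the CKO points of *Pclo*, *Cplx1*, *Bsn* and *Snap25* lie far to the left of their controls, and at E14.5 most pairs of points nearly touch.

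In E11.5 CKO ganglia the neuronal part of the machinery was listed lower than in control and the part that most cells use was not. Of the 72 members, 20 were lower and 12 higher, beside 12.9% and 18.9% of all genes in the table, and the median member was at -0.09 where the median gene was at 0.05. Of the 38 neuronal members 17 were lower and 4 higher (median -0.44), and their summed FPKM was 797 in control and 556 in CKO ganglia. The 14 pan-neuronal genes that are no member had a median of -0.46 in the same ganglia, close to the neuronal members' own. Of these 5 were lower and 0 higher, with sums of 5052 and 3558. Of the 23 members in most cells 1 was lower and 5 were higher (median 0.26), with sums of 507 and 609. Rescaling each genotype to the same sum without erythroid genes shifted the median of all genes by more than 0.1, to -0.18. The member counts then read 24 lower and 6 higher, beside 22.5% and 12.2% of all genes on that scale, the neuronal median -0.68 and the broad median 0.02. Neuronal members were below and broad members above the median of all genes on both scales. Among the 65 members at an FPKM of 1 or more in both genotypes, 18 were lower and 8 higher, and all genes were not counted under that filter. The other 7 (*Rph3a*, *Doc2g*, *Vamp5*, *Sytl5*, *Syt13*, *Sv2b* and *Synpr*) are in the table because 1 genotype reached that level.

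The active zone and priming genes were lower throughout. All 7 listed were past 1.5-fold, with log2 ratios from -2.37 to -0.64, a median of -1.09 and a summed FPKM of 84.9 in control and 37.0 in CKO ganglia. *Pclo* (piccolo, a giant active zone scaffold; mm9 chr5:14514918-14863457, plus strand) was 19.8 FPKM in control against 3.75 in CKO ganglia, 5.16-fold lower. *Bsn* (bassoon, its partner scaffold) was 5.81 and 1.79, or 3.12-fold lower. The short RIM genes *Rims3* and *Rims4* were 17.5 and 8.14, and 8.52 and 3.67, and the full-length RIM gene *Rims2*, which binds Rab3 and Munc13, was 12.4 and 7.92. *Unc13a* was 5.93 and 2.91 and *Unc13b* (Munc13-2) 14.9 and 8.82. In no other family of the machinery with more than 1 member was every member called.

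These are long transcripts, and at E11.5 the ratio of all genes moved with transcript length. By the longest coding transcript of the mm9 annotation, which gave a length for 89.1% of genes, the median log2 ratio was 0.37 under 1 kb, 0.23 from 1 to 2 kb, 0.08 from 2 to 4 kb, -0.12 from 4 to 8 kb and -0.41 at 8 kb or more. In that last class 34.9% of genes were lower, against 3.70% in the shortest. The active zone members span 4.92 to 20.1 kb. Set against the median of their own length class, the 7 were still all below it, with a median of -0.98, and 6 were past 1.5-fold. *Pclo* was at -1.96, *Bsn* at -1.23, *Rims4* at -1.08, *Rims3* at -0.98, *Unc13b* at -0.63, *Unc13a* at -0.59 and *Rims2* at -0.52. The classes are wide, and *Pclo* and *Bsn* lie well beyond the median length of the longest one, 9510 bases. The part of transcript length in these values was not tested further, and at E14.5 the class medians ran only from -0.01 to 0.02.

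**Figure D2:**
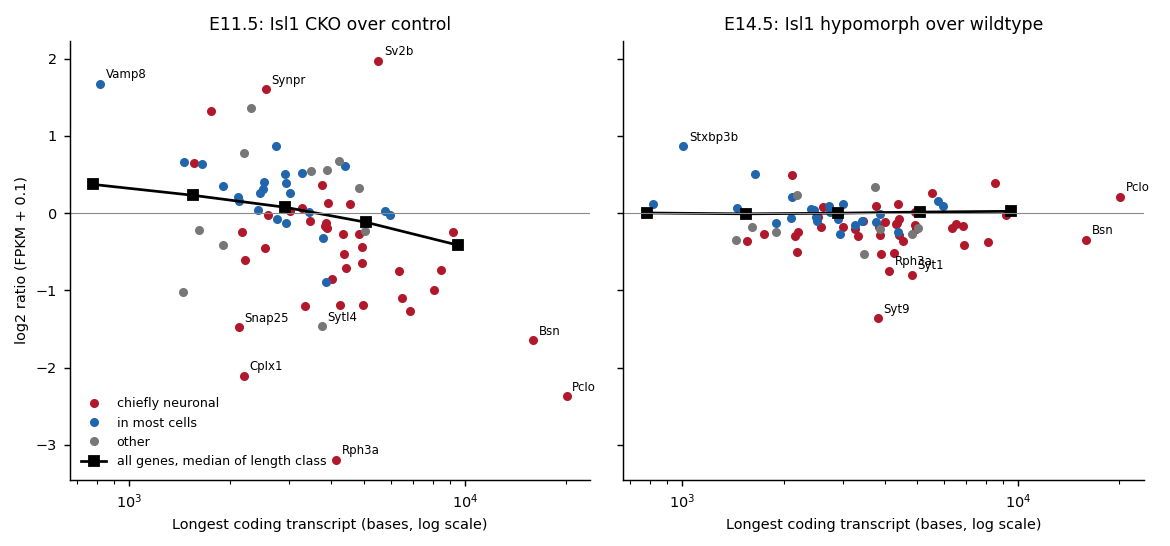
Log2 ratio of mutant over control against the length of the longest coding transcript (log axis) for each member, coloured by class, with the median of all genes in 5 length classes as black squares. At E11.5 the all-gene line slopes from 0.37 to -0.41 and *Pclo*, *Bsn*, *Cplx1*, *Snap25* and *Rph3a* lie below it, while at E14.5 the line is flat.

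*Cplx1* and *Snap25*, with shorter transcripts, were also lower. *Cplx1*, which clamps and promotes SNARE-driven fusion (mm9 chr5:108947573-108979043, minus strand), was 51.4 FPKM in control against 11.9 in CKO ganglia, 4.30-fold lower, and its relative *Cplx2* was 15.1 and 11.2 (-0.43). *Snap25* (mm9 chr2:136539189-136608164, plus strand) was 104 and 37.2, 2.78-fold lower. The study also reported both *Cplx1* and *Snap25* as lower in CKO by qPCR, which at this stage used sorted ganglion cells. Those qPCR values were not examined here. The transcripts of *Cplx1* and *Snap25* are 2.19 kb and 2.12 kb long, and against their length class *Cplx1* was at -2.18 and *Snap25* at -1.55. The other SNARE partners of *Snap25* were nearer to control. *Vamp2*, the synaptic vesicle SNARE, was 49.2 and 32.1 (-0.61), and *Stx1a*, a synaptic syntaxin, was 14.1 and 11.9 (-0.24).

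SNAREs of the plasma membrane and endosomes that many cell types use were mostly near control or above it. *Vamp8*, an endosomal SNARE also used for granule release in blood cells, was 11.9 FPKM in control against 38.3 in CKO ganglia, 3.20-fold higher. *Snap23* was 16.0 and 29.4, and *Stx4a*, a plasma membrane syntaxin, was 13.4 and 21.3. *Stx4a* was not past the fold after rescaling without erythroid genes (0.43), and *Snap23* (0.64) and *Vamp8* (1.44) were. *Stx8* of late endosomes (3.16 and 4.90) and *Vamp5* of muscle (0.688 and 1.13) were called at low levels, and both fell short after rescaling. The Golgi syntaxin *Stx16* was the broad member that was lower, at 18.7 and 10.0 (-0.89). Of the 10 SNAREs of internal membranes, the 8 that were not called ran from *Stx12* at -0.12 to *Snap47* at 0.35. The plasma membrane syntaxins *Stx2* and *Stx3* were at 0.39 and 0.52, *Vamp3* at 0.16, *Vamp4* at -0.08 and *Vamp1* at 0.03. The gene model of *Stx4a* overlaps another gene model on the opposite strand at its end, and whether counting used strand is not given in the sources used here.

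Few of the calcium sensors were called. *Syt1*, the fast sensor of vesicle fusion, was 34.5 FPKM in control against 28.6 in CKO ganglia (-0.27) and *Syt9*, also a fast sensor, was 6.87 and 6.09 (-0.17). *Syt7*, the slow high-affinity sensor, was 6.12 and 2.49, 2.40-fold lower, and *Syt5*, a sensor of dense core vesicles, was 5.09 and 12.9, 2.51-fold higher. So 1 of 10 synaptotagmins was called in each direction, beside 12.9% of all genes lower and 18.9% higher. The other 8 ran from *Syt14* at -0.41 to *Syt16* at 0.55, with *Syt11*, *Syt17*, *Syt4* and *Syt13* between them. The high-affinity sensors *Doc2a* (11.3 and 8.25 FPKM) and *Doc2b* (49.8 and 34.3) were at -0.45 and -0.53, short of 1.5-fold on the deposited scale. Both were called lower after rescaling without erythroid genes, and *Doc2b* also after centring on the median of all genes. *Doc2g*, which does not bind calcium, was at 1.06 and 0.471.

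Proteins of the vesicle itself were less uniform than the active zone. *Syp* was 60.2 FPKM in control against 59.1 in CKO ganglia, and *Syn1* and *Syn2*, synapsins that tether the reserve pool, were 19.02 and 19.999, and 22.7 and 20.7. *Syn1* was at 0.07 and turned to -0.16 after rescaling without erythroid genes and to -0.004 within its length class. *Syn3* was 5.78 and 3.17 (-0.85). Of the SV2 glycoproteins *Sv2c* was lower at 16.5 and 7.17 (-1.19), *Sv2a* was 16.0 and 13.3 (-0.27), and *Sv2b* was barely listed in control at 0.320 and reached 1.55. *Synpr*, a synaptophysin relative, was 0.703 and 2.34. The clathrin adaptor *Snap91* was 55.3 and 51.6.

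The Rab3 GTPases, which bring vesicles to the release site, also moved in different directions. *Rab3b* was 27.7 FPKM in control against 11.9 in CKO ganglia and *Rab3c* 24.0 and 14.3, whereas *Rab3a* was 22.5 and 35.3. *Rab3a* was at 0.65 on the deposited scale and at 0.41 after rescaling without erythroid genes, short of the fold, and *Rab3c* was at -0.74 and short of it within its length class. *Rab3d* of exocrine granules was 6.52 and 9.62 (0.55). Their effectors differed too. *Rph3a* (rabphilin; mm9 chr5:121390511-121459527, minus strand) was 1.36 and 0.0597, low in both, with a log2 ratio that depends on the added constant and ran from -4.30 to -1.15 under the constants tried. *Rph3al* (Noc2, a granule effector) was 6.14 and 10.6 (0.77), and 0.54 after rescaling.

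Granuphilin and the disassembly genes complete the E11.5 list. *Sytl4* (mm9 chrX:130470924-130516351, minus strand), the member with the highest control level, was 234 FPKM in control against 84.9 in CKO ganglia, 2.76-fold lower. Its relatives *Sytl2* (1.63 and 2.07) and *Sytl5* (0.402 and 1.196) were low. The neuronal NSF cofactor *Napb* was 20.2 and 12.3 (-0.70), its broadly used relative *Napa* was 48.6 and 64.6 (0.41), and *Nsf* was 27.3 and 21.9 (-0.32). Of 6 syntaxin-binding proteins 1 was called, *Stxbp6* (amisyn) at 1.06 and 1.75, and *Stxbp2*, *Stxbp3a*, *Stxbp4* and *Stxbp5* were at 0.51, 0.03, -0.02 and -0.24.

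Promoter sequence was looked up for all members. RefSeq start sites on GRCm38.p6 gave windows of 250 bases before the start for 59 of the 77 members. The LIM-homeodomain core CTAATG, searched on both strands (reverse CATTAG), was in a window of 7 members, or 11.9%, and in 7.35% of 27025 genes; these were *Cplx1*, *Rph3a*, *Stx2*, *Synpr*, *Syt6*, *Sytl5* and *Vamp8*. The first letters of the RE1 element that REST binds, TTCAGCACC (reverse GGTGCTGAA), were in the window of 1 member, *Syn1*, or 1.69%, and of 0.348% of all genes. The cAMP response element TGACGTCA, its own reverse, was in *Syn1* as well and in 1.77% of all genes. The windows below are shown because *Cplx1* and *Rph3a* were the lowest of their families in CKO ganglia, *Vamp8* had the highest ratio of the members at 5 FPKM or more, and *Syn1* was nearly equal in both genotypes. Capitals mark the motif matches, on either strand, which are descriptions of letters and not of binding. The study did measure ISL1 binding by ChIP-seq in sympathetic ganglia, and names *Snap25* among the bound genes that were lower in CKO. Those binding data were not examined here. The windows lie on the minus strand at chr5:108550028-108550277 for *Cplx1*, chr5:121010093-121010342 for *Rph3a*, chr6:72390668-72390917 for *Vamp8* and chrX:20920919-20921168 for *Syn1*, written 5′ to 3′ in the direction of the gene.
Cplx1: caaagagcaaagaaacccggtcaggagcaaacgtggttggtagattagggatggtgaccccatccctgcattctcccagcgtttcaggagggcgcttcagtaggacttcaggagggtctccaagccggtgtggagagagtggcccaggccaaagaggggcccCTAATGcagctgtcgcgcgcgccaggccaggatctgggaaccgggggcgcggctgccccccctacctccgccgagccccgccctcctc
Rph3a: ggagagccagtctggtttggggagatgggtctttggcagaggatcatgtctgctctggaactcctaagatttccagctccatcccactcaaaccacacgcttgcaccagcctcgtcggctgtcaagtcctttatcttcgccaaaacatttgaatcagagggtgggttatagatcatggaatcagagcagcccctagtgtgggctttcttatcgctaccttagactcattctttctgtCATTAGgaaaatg
Vamp8: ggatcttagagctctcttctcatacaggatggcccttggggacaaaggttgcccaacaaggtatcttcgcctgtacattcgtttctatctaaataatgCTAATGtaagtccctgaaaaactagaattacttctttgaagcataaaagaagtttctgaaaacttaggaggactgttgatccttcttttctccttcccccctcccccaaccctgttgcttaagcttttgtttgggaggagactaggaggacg
Syn1: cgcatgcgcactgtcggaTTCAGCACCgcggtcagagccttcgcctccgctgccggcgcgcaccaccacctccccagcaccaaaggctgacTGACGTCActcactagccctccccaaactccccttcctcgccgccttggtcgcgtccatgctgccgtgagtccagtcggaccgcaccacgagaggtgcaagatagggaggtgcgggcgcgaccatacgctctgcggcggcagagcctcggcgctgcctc
The CTAATG match of *Cplx1* lies 88 to 83 bases before the start and that of *Vamp8* 152 to 147, so the letters occur in a member that was lower and in a member that was higher. The match of *Rph3a* lies 13 to 8 bases before the start, in 1 of its 3 windows. *Bsn*, *Pclo*, *Rims3*, *Unc13a* and *Unc13b*, the active zone members with a window, held none of these letters.

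At E14.5 the hypomorph differed far less, and few members were called. Of 74 members 3 were lower (4.05%) and 1 higher (1.35%), beside 2.12% and 2.89% of all genes in the table. A log2 ratio below 0 was found for 52 of 74 (median -0.14, all genes 0.003). *Syt9* (mm9 chr7:114514242-114692170, plus strand) was 20.6 FPKM in wildtype and 7.95 in hypomorph ganglia, 2.57-fold lower. *Syt1* (mm9 chr10:107934706-108448038, minus strand) was 71.0 and 40.8, 1.74-fold lower. *Rph3a* was 11.1 and 6.58 (-0.75). The member that was higher, *Stxbp3b* at 1.47 and 2.75, is a short gene model related to *Stxbp3a*, and how reads were shared between them is not given. *Sv2b* and *Syt13*, of 74 members, reached an FPKM of 1 in hypomorph ganglia only.

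Below the fold, most neuronal members were slightly under wildtype. Of 41, 33 were below 0 (median -0.19, summed FPKM 1786 and 1600), and of 24 broadly used members 12 were (median 0.01). Among 13 synaptotagmins 11 were below 0, with a median of -0.27 and sums of 408 and 314. *Syt4* of dense core vesicles was 46.1 and 31.9 (-0.53), *Syt16* 13.7 and 9.47 (-0.52), *Syt5* 20.6 and 17.1 (-0.27) and *Syt2*, listed at this stage only, 1.496 and 1.104. The pair above 0 were *Syt3* and *Syt13*, both under 2 FPKM. *Cplx1* was 109 and 76.9 (-0.50) and *Sv2c* 83.4 and 58.4 (-0.51), both short of 1.5-fold. The core SNARE genes *Stx1a* (46.3 and 37.8, -0.29) and *Vamp2* (112 and 94.2, -0.25) were below wildtype by less than 1.5-fold. The pan-neuronal genes that are no member had a median of -0.24 in the same ganglia, close to the neuronal members' own.

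The active zone genes were near wildtype at E14.5, from -0.37 to 0.21. *Pclo* was 24.7 FPKM in wildtype and 28.6 in hypomorph ganglia, *Bsn* 13.9 and 10.9, and *Unc13a* 21.1 and 16.3. *Rims2* was 10.8 and 10.9, *Rims3* 58.0 and 52.5, *Rims4* 18.6 and 16.2 and *Unc13b* 23.9 and 21.0. Of the other families, the 10 internal SNAREs ran from -0.24 to 0.16 and the 3 disassembly genes from -0.12 to -0.07. The vesicle proteins *Syp* (129 and 113), *Syn1* (50.1 and 43.4) and *Sv2a* (40.9 and 37.0) were between -0.21 and -0.14. Members above wildtype at a sizeable level were *Snap25* (177 and 250, 0.50), *Rab3c* (41.9 and 55.0, 0.39) and *Sytl4* (203 and 256, 0.33), none of them past 1.5-fold. The remaining Rab3 genes were *Rab3a* (84.6 and 65.8, -0.36), *Rab3b* (57.0 and 46.5, -0.29) and *Rab3d* (17.7 and 15.3, -0.21), and *Rph3al* was 11.6 and 13.7 (0.23). The slow sensor *Syt7* was 21.2 and 18.8 (-0.17), *Doc2b* was 87.5 and 80.3 (-0.12) and *Snap91* was 105 and 98.3 (-0.10).

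Set side by side over the 69 genes in both tables, 32 were below 0 at both stages, 12 above 0 at both, 7 below at E11.5 and above at E14.5, and 18 the reverse. Of the 37 neuronal members 25 were below at both stages and 2 above at both. *Rph3a* was the 1 member past 1.5-fold at both stages, and at E11.5 it was near the lower limit of the table. These counts were not made over all genes of both tables, so no background share stands beside them. *Snap25*, *Sytl4*, *Rab3c* and *Pclo* were lower in CKO ganglia and above wildtype in hypomorph ganglia, and *Syt1* and *Syt9*, the synaptotagmins with the lowest ratios at E14.5, were within 1.5-fold at E11.5. Allele, stage and dissection all differ between the comparisons and the difference between them was not tested.

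**Figure D3:**
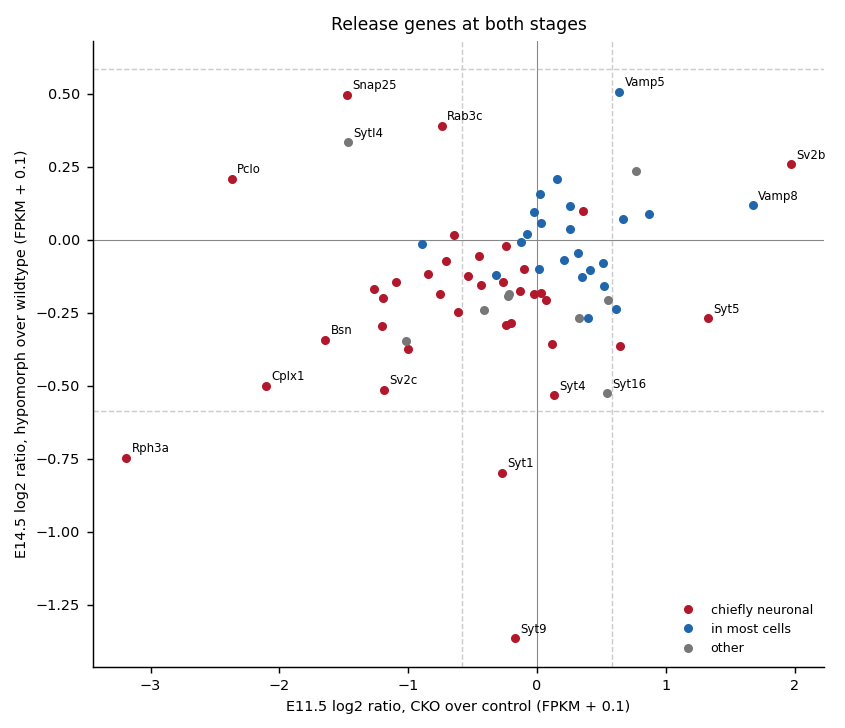
Log2 ratio at E14.5 (hypomorph over wildtype) against log2 ratio at E11.5 (CKO over control) for the 69 members in both tables, coloured by class, with lines at 1.5-fold. The axes have different scales: E11.5 ratios run from -3.19 to 1.97 and most E14.5 ratios lie within the lines. *Rph3a* alone lies past both lines in the lower left, and *Snap25*, *Sytl4*, *Rab3c* and *Pclo* lie in the upper left.

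Ratios between related genes within a genotype do not depend on how the table was scaled. They can still carry the E11.5 trend with transcript length where the lengths differ. *Vamp2* and *Vamp8* are 2.2 and 0.82 kb, *Napb* and *Napa* 4.4 and 2.5 kb, and *Rab3a* and *Rab3b* 1.6 and 3.3 kb. *Cplx1* and *Cplx2* are 2.2 and 4.9 kb, and *Snap25* and *Snap23* 2.1 and 2.7 kb. The part of length in these ratios was not tested. The pairs were chosen after their values were seen and their ratios are a description. In E11.5 control ganglia *Snap25* was 6.47 times *Snap23*, and in CKO ganglia 1.27 times. *Cplx1* over *Cplx2* was 3.39 and 1.06, and *Vamp2* over *Vamp8* 4.13 and 0.84. The lead of the first gene was smaller in CKO ganglia in all 3 pairs, and *Vamp8* was above *Vamp2* there. *Napb* over *Napa* was 0.41 and 0.19. Among neuronal relatives *Rab3a* over *Rab3b* was 0.81 in control and 2.95 in CKO ganglia, and *Rab3a* over *Rab3c* 0.94 and 2.46. At E14.5 these ratios moved little or the other way: *Snap25* over *Snap23* was 21.7 in wildtype and 28.8 in hypomorph ganglia, *Cplx1* over *Cplx2* 4.73 and 3.73, and *Napb* over *Napa* 0.51 and 0.52. *Vamp8*, *Snap23* and *Napa* are also used by the glial and blood cells whose markers were higher in CKO ganglia, and their part in these ratios was not tested.

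**Figure D4:**
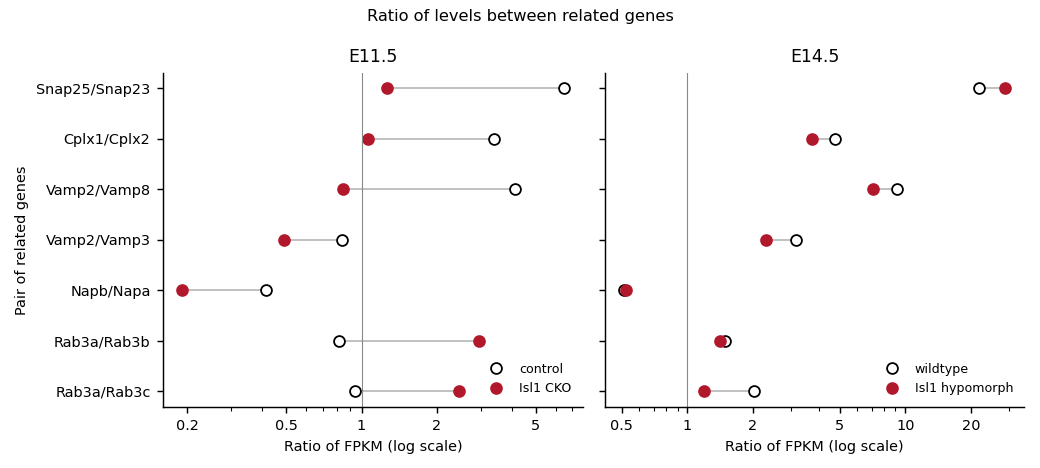
Ratio of FPKM between pairs of related genes (log axis), with the control or wildtype value as an open circle and the mutant value as a filled one, each from the authors' pooled values. At E11.5 *Snap25*/*Snap23*, *Cplx1*/*Cplx2* and *Vamp2*/*Vamp8* move to about 1, and at E14.5 the circles lie close together.

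Genes of the pathway outside the symbol rule were also listed. At E11.5, of 47 listed 8 were lower and 5 higher (median -0.03), beside 12.9% and 18.9% of all genes. The counts of these genes were not taken within transcript length classes or after rescaling without erythroid genes, where their median was -0.26. Of 18 active zone partners 7 were lower and 1 higher (median -0.55): *Lin7a* was 12.3 FPKM in control against 3.23 in CKO ganglia, *Ppfia2* (liprin-alpha2) 10.7 and 2.96, *Apba2* (Mint2) 35.5 and 16.4, *Rab27a*, the GTPase that granuphilin binds, 27.8 and 13.5, and *Apba1*, *Cacna1b* (the N-type calcium channel) and *Ppfia1* between -0.89 and -0.62. *Cadps2* was higher at a low level (0.81). Of 13 genes of the vesicle membrane and its filling 1 was lower (*Sncb*, beta-synuclein, 3.283 and 1.4002) and 3 were higher, among them *Sncg* (gamma-synuclein) at 48.2 and 135 and *Syngr2* (synaptogyrin-2) at 10.7 and 16.6. Of 16 genes of vesicle retrieval 0 were lower and 1 higher (*Clta*, clathrin light chain, 170 and 258). *Clta* (0.61) and *Syngr2* (0.63) were little past the fold, which is 0.58 in log2. The member *Stx4a*, at 0.67, fell short of it after rescaling without erythroid genes. At E14.5, of 46 genes 0 were lower and 1 higher, beside 2.12% and 2.89% of all genes. The higher gene was *Slc18a1*, a vesicular monoamine transporter, at 18.2 and 44.4. It is also the 1 higher gene among the 10 sympathetic genes at E14.5.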

How the data were processed

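RNA of dissected sympathetic ganglia was read as polyA RNA-seq. Per the study's methods, the authors aligned reads to mm9 with TopHat and estimated FPKM with cuffdiff. The submitters' processing notes name Bowtie, TopHat 1.3.1, Cuffdiff 1.3.0 and dm3, a fly build, although the symbols are those of the mouse. The deposited tables also hold the authors' log2 fold change and p-value columns, which were not used. Both tables hold only genes that reach an FPKM of 1 in some genotype, so that filter removed 0 genes. Members were found by symbol, and members, classes, lists and thresholds were chosen with earlier results of these data known. Log2 ratios used a constant of 0.1. Named genes were members at 1.5-fold with an FPKM of 5 or more, the 3 highest of each control and the release core; the others are given so that members are accounted for, and were chosen after their values were seen. Positions are from the GENCODE annotation of mm9. Some members and pathway genes counted in the totals are not reported by name here. Only the fold calls were tested on simulated data, with set changes and set noise. That noise does not stand for the unknown spread between libraries. Python 3.11.15, numpy 2.4.6, pandas 2.3.3 and matplotlib 3.10.9 were used. Alternatives were a constant of 1 or 0.01, no filter, an FPKM of 5 in either or 1 in both genotypes, centring on the median, rescaling without erythroid genes, a fold of 2 or 1.2 and, chosen after seeing the data, centring by transcript length.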

Additional observations from a re-analysis of the deposited data

Results flagged for a closer look

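For 5 members the log2 ratio was past 1.5-fold one way at one stage and past 1.2-fold the other way at the other. *Snap25* was at -1.47 at E11.5 and 0.50 at E14.5, and *Sytl4* at -1.47 and 0.33. *Rab3c* was at -0.74 and 0.39, while *Rab3a* was at 0.65 and -0.36 and *Syt5* at 1.33 and -0.27. Each is a pair of pooled values from different alleles and stages, and the difference was not tested.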

How the results depend on the processing

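The count of 12 members higher at E11.5 was 6 when members under an FPKM of 5 in both genotypes were left out, 6 after rescaling without erythroid genes, 5 at 2-fold and 22 at 1.2-fold. The count of 20 lower was 13 at 2-fold and 24 after rescaling. Rescaling moved the E11.5 median of all members from -0.09 to -0.32, of neuronal members from -0.44 to -0.68, of broadly used members from 0.26 to 0.024 and of the other pathway genes from -0.03 to -0.26. Centring by transcript length moved the neuronal median to -0.32. At E14.5 the count of 1 higher was 0 under the same filter, 0 at 2-fold and 5 at 1.2-fold. The count of 3 lower was 1 at 2-fold and 20 at 1.2-fold. Counts over all genes were not made at 2-fold, at 1.2-fold or under the FPKM filters. No background share therefore stands beside those member counts at either stage. The log2 ratio of *Rph3a* at E11.5 was -1.15 with a constant of 1 and -4.30 with 0.01. After rescaling, *Syn1* (-0.16) at E11.5 and *Stx16* (0.015) at E14.5 changed sign, neither past the fold, and *Syn1* was at -0.004 within its length class. The broad median at E14.5 was -0.006 when members under an FPKM of 5 were left out. At E11.5 rescaling added the lower calls of *Cplx2*, *Doc2a*, *Doc2b* and *Syt14* and removed the higher calls of *Rab3a*, *Rph3al*, *Stx4a*, *Stx8*, *Vamp5* and *Stxbp6*. Centring by length removed the calls of *Rab3a*, *Rab3c*, *Rims2*, *Stx4a* and *Vamp5* and added *Syt14*. The cause of these shifts was not tested. Rescaling is itself incomplete, since only the listed erythroid genes were left out, *Hbb-y* among them. No paired analysis was possible because the tables combine the libraries of a genotype, which also kept any library from being left out. Depth is unknown, so no limit of detection could be given.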
